A study of Mus musculus with 15 samples.

Results

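Genes that bring lipid from the blood into brown adipose tissue and carry it inside the cell were examined in 15 bulk RNA sequencing libraries. The 10 genes are Lpl, Gpihbp1, Angptl4, Cd36, Slc27a1, Slc27a2, Fabp4, Fabp5, Vldlr and Mfsd2a, found as the rows of the deposited table with exactly these symbols, 10 of 24030 symbols. All 10 were among the 15083 genes tested. The groups were KO at 29 °C (3 libraries), WT at 29 °C (4), KO at room temperature (4) and WT at room temperature (4), each after 8 weeks of that housing. KO mice are labelled as lacking DJ-1, the redox-sensitive protein encoded by Park7, in brown fat only. WT mice are given as flox mice. The sources used here do not name the promoter that drives the deletion, the strain, the age or the sex. They also do not say that libraries came from separate animals, so the p-values cover the spread between libraries, which may be technical. At 29 °C, near thermoneutrality, a mouse needs little heat from brown fat, whereas room temperature is a mild cold load.

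Total estimated counts were 24112614 to 38800967 per library in KO at 29 °C and 23977448 to 26789246 in the other groups. Park7 was at 31.7 ± 5.46 CPM in KO and 118 ± 11.0 CPM in WT at 29 °C, and at 28.2 ± 4.03 CPM in KO and 109.9 ± 1.65 CPM in WT at room temperature (SD), with no overlap between genotypes. CPM is edgeR's depth-normalised count, with library totals scaled by TMM. All 10 brown adipocyte markers, Ucp1 among them, were above 0 in every library, with a sum of 9173 to 11789.5 CPM in KO at 29 °C, 3116 to 4191 CPM in WT at 29 °C, 8389.8 to 14859 CPM in KO at room temperature and 12491 to 14840.2 CPM in WT at room temperature. The 12 skeletal muscle markers, all above 0 in 3 libraries, summed to 526 CPM in KO at 29 °C replicate 2, 1631 CPM in its replicate 3 and 1341 CPM in WT at 29 °C replicate 2, against at most 12.03 CPM in the other 12 libraries, where 1 to 9 of them were at 0. Fits without the 3 libraries that hold muscle transcripts leave 1 KO library at 29 °C, assumed to vary like the other groups. Calls made or lost in them are descriptive. In KO at room temperature, replicates 2 and 4 stood apart from replicates 1 and 3 in several of the genes below. Fits without replicates 2 and 4 were chosen after seeing this, so shifts in those genes follow from the choice and test nothing.

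Triglyceride reaches brown fat in lipoprotein particles. Lipoprotein lipase, made by adipocytes and held on the capillary wall by GPIHBP1, splits it there into fatty acids, and ANGPTL4 inactivates the lipase. CD36 and the fatty acid transport proteins help fatty acids across the membrane, fatty acid binding proteins carry them through the cytosol, and the VLDL receptor takes up whole particles. In brown fat this supply feeds heat production, and cold exposure is known to raise lipase activity there.

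Per kilobase of transcript, the only scale on which levels of different genes are compared here, Fabp4 stood far above the rest, at 7836 ± 568, 7409.5 ± 761, 10747 ± 1697 and 11098 ± 921 CPM per kb in KO and WT at 29 °C and KO and WT at room temperature (mean ± SD). Lpl came second in 3 groups, with 1029 ± 172 CPM per kb in KO at 29 °C, 1283 ± 352 in KO at room temperature and 1463 ± 54.6 in WT at room temperature. In WT at 29 °C it averaged 380.0 ± 81.5 CPM per kb, overlapping Cd36 above it (399 ± 61.3) and Gpihbp1 below it (298 ± 42.0). Gpihbp1 held rank 4 in that group, against rank 8 in WT at room temperature, where it measured 58.5 ± 7.54 CPM per kb. Vldlr and Mfsd2a were the lowest in every group, with Mfsd2a between 0.310 ± 0.243 CPM per kb in WT at 29 °C and 6.65 ± 6.83 in WT at room temperature. Neighbours whose libraries overlapped were, in WT at room temperature, Angptl4, Slc27a1 and Slc27a2. In KO at room temperature they were Slc27a1 with Angptl4, and Gpihbp1, Slc27a2 and Vldlr. In KO at 29 °C they were Angptl4, Gpihbp1 and Fabp5, and in WT at 29 °C also Slc27a1 with Slc27a2. Lengths are those of the principal GENCODE transcript. With the length of all annotated exons joined, Fabp4 stayed first and Mfsd2a last in all 4 groups, while ranks in between changed.

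**Figure D1:**
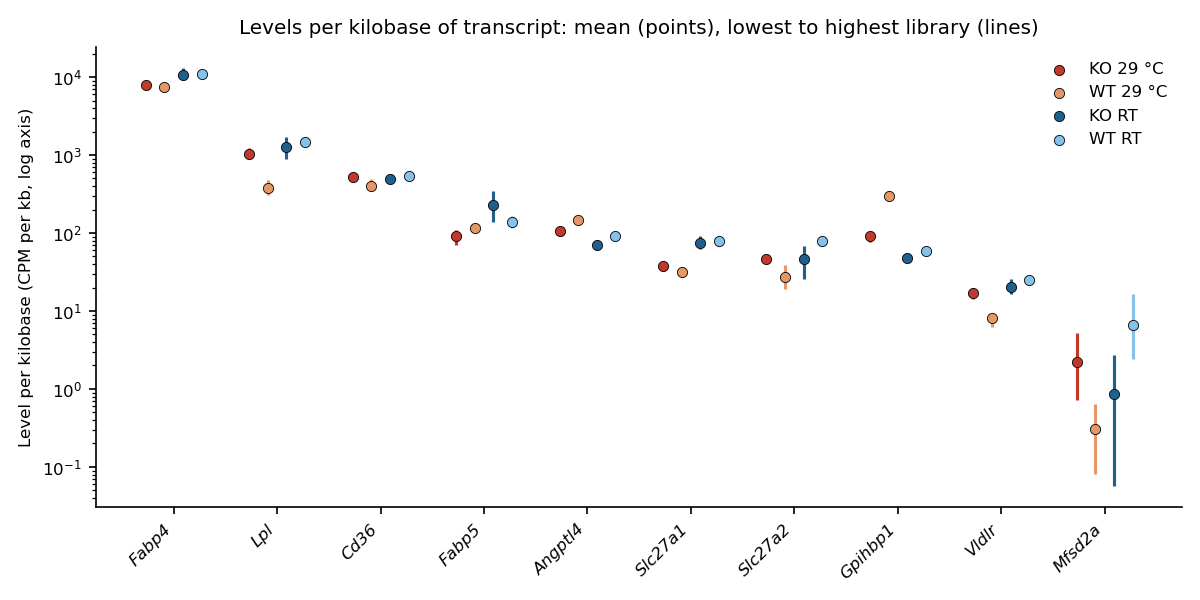
Level per kilobase of transcript (CPM per kb, log axis) of the 10 genes in each group, with points for the mean and lines for the lowest to highest library. Fabp4 is highest and Mfsd2a lowest in every group, and Gpihbp1 in WT at 29 °C stands at 298 ± 42.0, above its 3 other groups.

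Housing at 29 °C, set against room temperature in KO mice, changed 5 of the 10 genes, with Gpihbp1 and Angptl4 higher and Slc27a1, Fabp4 and Fabp5 lower. By edgeR's quasi-likelihood test with Benjamini-Hochberg adjustment over all genes, 46.0% of genes tested were called at an adjusted p under 0.05 in this comparison, 24.3% as higher and 21.7% as lower, so 5 of 10 lies near the background. Groups did not overlap in 48.1% of genes. Without the 3 libraries that hold muscle transcripts 3 of the 10 and 26.3% of genes tested were called. The median log2 fold change of the 10 with all libraries was -0.13, against 0.04 over all genes tested. In WT mice the same housing comparison called 9 of the 10. Lpl, Cd36, Slc27a1, Slc27a2, Fabp4, Vldlr and Mfsd2a fell, and Gpihbp1 and Angptl4 rose. Here 68.8% of genes tested were called (35.9% higher, 32.8% lower, and 62.6% with no overlap of groups), so 9 of 10 is to be read against a high background. The median of the 10 was -0.95, against 0.06 over all genes.

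KO set against WT at 29 °C differed in 5 of the 10 genes: Lpl, Cd36 and Vldlr were higher in KO, and Gpihbp1 and Angptl4 lower. Of all genes tested 44.7% were called there, 24.7% as higher and 20.0% as lower, so 5 of 10 lies near the background. The median of the 10 was 0.34, against 0.04 over all genes. At room temperature edgeR called none of the 10 and 0.239% of all genes. At an unadjusted p under 0.05 there were 6, against 11.1% of all genes. DESeq2 called 1 (Fabp5), against 1.57% of all genes, and limma-voom 0. The interaction, which tests whether the housing effect differs between KO and WT, was called for 7 of the 10, against 28.3% of genes tested (16.0% positive and 12.3% negative). It was positive for Lpl, Cd36, Slc27a2, Vldlr and Mfsd2a and negative for Gpihbp1 and Fabp5. Without KO at room temperature replicates 2 and 4 the interaction was called for 4, against 20.7% of genes tested there, and without the 3 libraries that hold muscle transcripts for 3, against 18.6%. The comparisons share groups and are not independent of each other. Within the pair of housing comparisons and within the pair of genotype comparisons no library is shared. These pairs still come from the same fit, with scaling and an estimate of the spread taken over all 15 libraries.

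**Figure D2:**
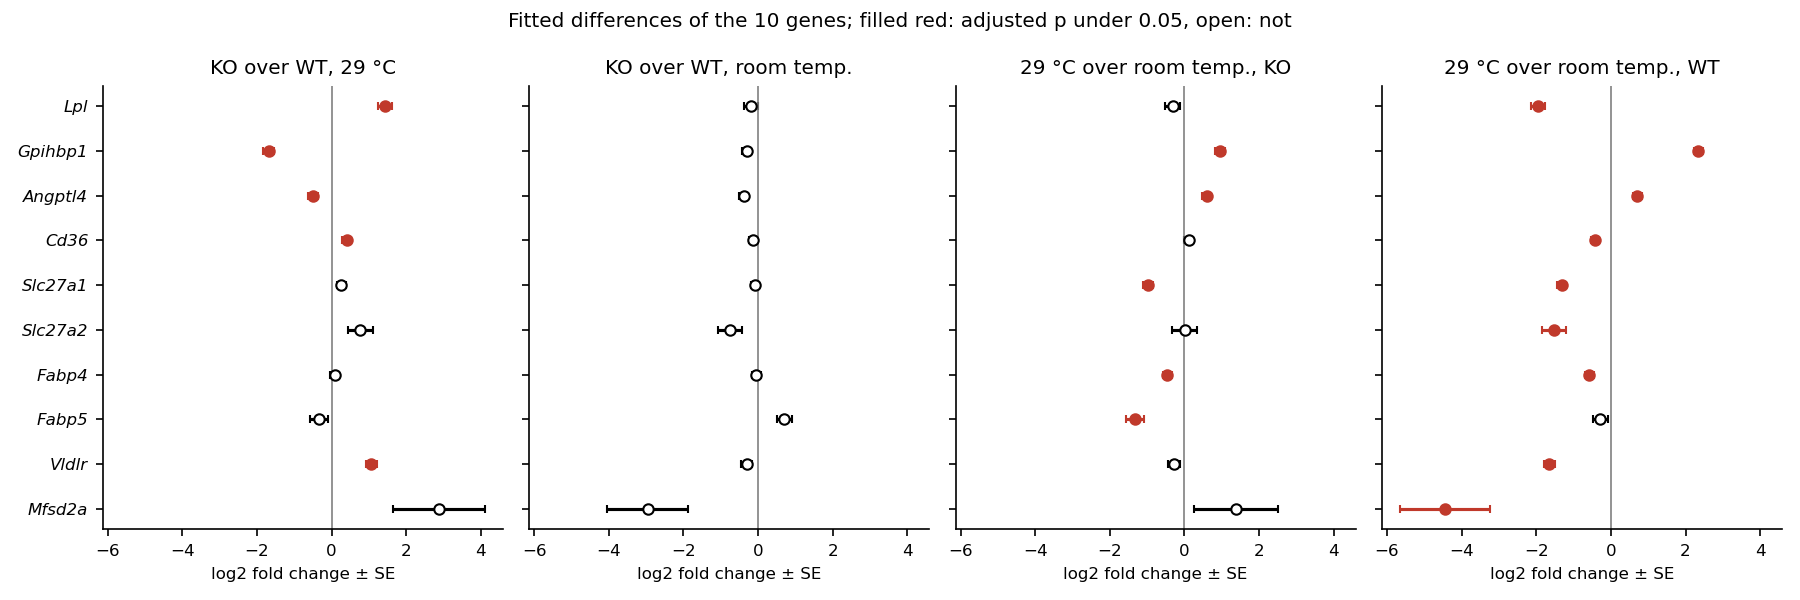
Log2 fold change ± SE of the 10 genes in the 4 pairwise comparisons, filled where the adjusted p was under 0.05. At 29 °C, KO over WT is positive for Lpl (1.44) and Vldlr (1.07) and negative for Gpihbp1 (-1.69), and no gene is filled for KO over WT at room temperature.

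Lpl encodes lipoprotein lipase itself (chr8:68880491-68907448, plus strand, GRCm38, 10 exons). It measured 3610.3, 5003 and 4092 CPM in the KO libraries at 29 °C, against 1248, 1349, 1988 and 1670.3 CPM in the WT libraries at 29 °C. At room temperature it measured 7018, 4598, 5803 and 3693 CPM in KO and 6160.0, 5707, 6203 and 6005 CPM in WT. Every KO library at 29 °C lay above every WT library at 29 °C, and the WT libraries at 29 °C were the lowest of the study. In the fit, KO was 2.71-fold higher than WT at 29 °C (log2 fold change 1.44 ± 0.19, adjusted p = 2.7e-05). In KO the housing difference was -0.32 ± 0.20, adjusted p = 0.196. Without replicates 2 and 4, the lowest KO libraries at room temperature, it was -0.60. Leaving out the lowest libraries enlarges this fall by itself, so that value is not a test of it. WT at 29 °C was 3.85-fold lower than WT at room temperature (-1.94 ± 0.19, adjusted p = 1.5e-07), and the interaction was 1.63 ± 0.27, adjusted p = 3.8e-04. KO and WT at room temperature overlapped (-0.19 ± 0.18, adjusted p = 0.744).

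Gpihbp1 encodes the capillary anchor of the lipase and is made by endothelial cells (chr15:75596628-75599481, plus strand, 4 exons). It moved the other way from Lpl, with 80.8, 63.0 and 84.6 CPM in KO at 29 °C, against 220.4, 213, 263 and 286 CPM in WT at 29 °C. At room temperature it had 39.6, 35.7, 42.6 and 38.9 CPM in KO and 43.3, 43.6, 49.7 and 56.5 CPM in WT. The WT libraries at 29 °C stood above all others, and KO at 29 °C lay between them and the room-temperature libraries. KO was 3.23-fold lower than WT at 29 °C (log2 fold change -1.69 ± 0.14, adjusted p = 4.1e-07). Housing at 29 °C raised it 1.94-fold in KO (0.96 ± 0.13, adjusted p = 2.8e-05) and 5.09-fold in WT (2.35 ± 0.13, adjusted p = 5.1e-10), and the interaction was -1.39 ± 0.18, adjusted p = 7.1e-05. At room temperature KO lay below WT with no overlap, as in 8.21% of genes tested, and the difference was not called (-0.30 ± 0.12, adjusted p = 0.370).

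Endothelial markers moved in the same directions as Gpihbp1. Of 14 markers, 13 were lower in KO than in WT at 29 °C, against 20.0% of all genes tested, and at room temperature 1, the tight junction gene Cldn5, was lower in KO than in WT (-1.28 ± 0.23, adjusted p = 0.0423). At 29 °C against room temperature 8 were higher in KO and 14 in WT, against 24.3% and 35.9% of all genes. Their summed level was 807 to 1127 CPM in KO at 29 °C, 1864 to 2545 CPM in WT at 29 °C, 631 to 812 CPM in KO at room temperature and 753 to 941 CPM in WT at room temperature, and none of the 14 was at 0 in any library. In bulk tissue, fewer cells of a type and less RNA per cell cannot be told apart. As a log2 ratio to the mean of these markers in the same library, Gpihbp1 stood at 0.88, 0.34 and 0.40 in KO and 0.94, 0.82, 1.34 and 1.14 in WT at 29 °C. At room temperature the ratios were 0.34, 0.08, 0.09 and -0.01 in KO and -0.01, 0.11, 0.35 and 0.19 in WT. In KO the 29 °C ratios were higher than at room temperature by 0.42 (two-sided exact permutation p = 0.0571). WT at 29 °C lay above WT at room temperature without overlap, by 0.90 (exact p = 0.0286, the smallest possible with 4 libraries a group). KO and WT at 29 °C overlapped and differed by -0.52 (exact p = 0.0857). Of the 12 tests on this and the next ratios none stayed under 0.05 after adjustment (the smallest adjusted p was 0.0857). No exact p can lie under 0.0286 with these group sizes, so adjustment over 12 tests could hardly give a value under 0.05. The adjusted values therefore decide little.

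Angptl4 encodes the secreted protein that inactivates the lipase (chr17:33773750-33781830, minus strand, 7 exons). Its levels were 337, 382 and 329.8 CPM in KO and 507, 482, 547 and 431 CPM in WT at 29 °C. At room temperature they were 253, 203, 197 and 269 CPM in KO and 329, 274, 331 and 272 CPM in WT. KO lay below WT without overlap at both temperatures, and the difference was called at 29 °C (-0.49 ± 0.13, adjusted p = 0.00480) and not at room temperature (-0.39 ± 0.12, adjusted p = 0.218). Housing at 29 °C raised it by 0.60 in KO (adjusted p = 0.00105) and by 0.71 in WT (adjusted p = 5.2e-05). The interaction was not called (-0.11 ± 0.17, adjusted p = 0.681). Without the libraries that hold muscle transcripts, which leaves 1 KO library at 29 °C assumed to vary like the other groups, the rise in KO was 0.47 and was not called (adjusted p = 0.0786).

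The log2 ratio of Angptl4 to Lpl within a library put the inhibitor beside its target. It was -3.42, -3.71 and -3.63 in KO and -1.30, -1.49, -1.86 and -1.95 in WT at 29 °C. At room temperature it was -4.79, -4.50, -4.88 and -3.78 in KO and -4.23, -4.38, -4.23 and -4.47 in WT. WT at 29 °C stood above all other libraries. At 29 °C the ratio was 3.83-fold lower in KO than in WT (difference -1.94, two-sided exact permutation p = 0.0286). In KO the housing difference was 0.90 (exact p = 0.0571). In WT the ratio was 6.39-fold higher at 29 °C than at room temperature (difference 2.68, exact p = 0.0286), and at room temperature KO and WT overlapped (-0.16, exact p = 0.600).

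**Figure D3:**
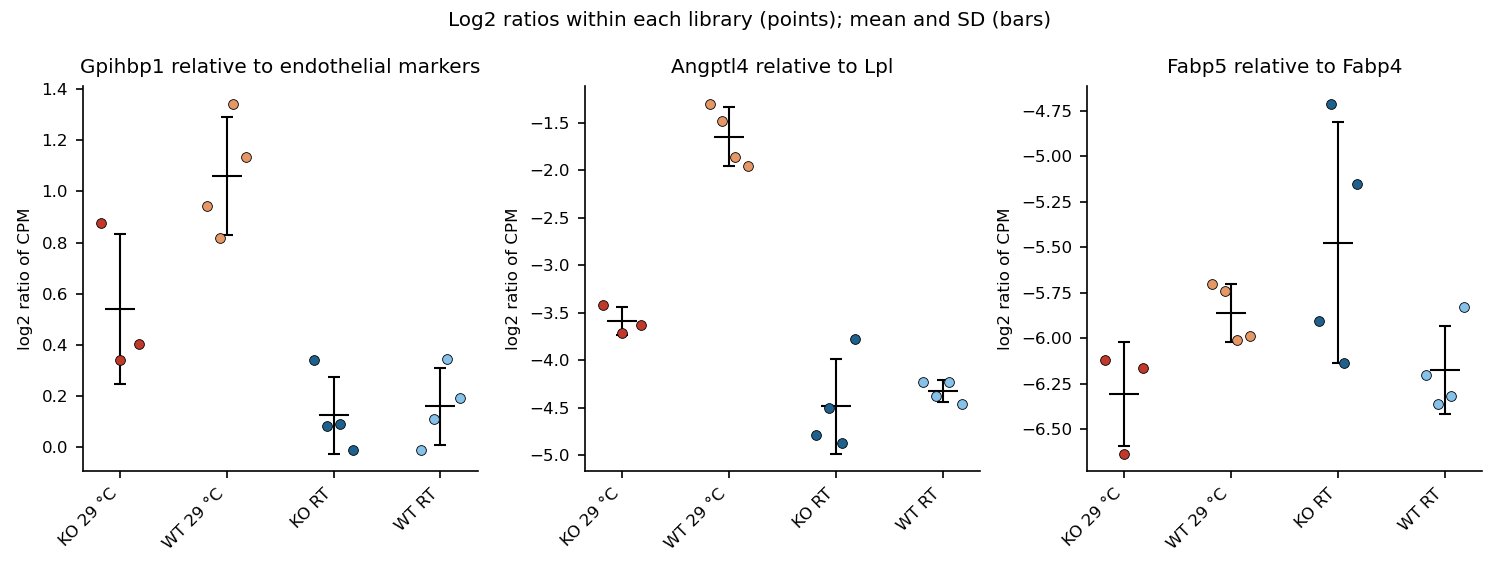
Log2 ratios within each library of Gpihbp1 to the mean of 14 endothelial markers, of Angptl4 to Lpl and of Fabp5 to Fabp4, as points with the group mean and SD. The WT libraries at 29 °C have the highest Angptl4 ratio, from -1.95 to -1.30, above all libraries of the other groups.

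Cd36 encodes a membrane receptor that takes up long-chain fatty acids in adipocytes, endothelial cells and macrophages (chr5:17781690-17888801, minus strand, 15 exons). Its group means varied least of the 10, with 1734, 1983 and 1687 CPM in KO and 1200.1, 1338, 1235 and 1657 CPM in WT at 29 °C. At room temperature it had 1876, 1576, 1648 and 1549 CPM in KO and 1879.9, 1944, 1799.7 and 1712 CPM in WT. Every KO library at 29 °C lay above every WT library at 29 °C, of which replicate 4 came closest. KO was 1.33-fold higher (0.41 ± 0.12, adjusted p = 0.00993), a call lost without KO at 29 °C replicate 2 (0.34, adjusted p = 0.0579), without the libraries with muscle transcripts (0.27, adjusted p = 0.287) and in a fit of these 2 groups alone (adjusted p = 0.0723). In KO the housing difference was 0.12 (adjusted p = 0.442). In WT it fell at 29 °C (-0.43 ± 0.11, adjusted p = 0.00222), and with library totals unscaled that difference was -0.10 and not called. The interaction (0.55 ± 0.16, adjusted p = 0.0177) was lost without KO at 29 °C replicate 2 (adjusted p = 0.0570), without the libraries with muscle transcripts (adjusted p = 0.189) and without KO at room temperature replicates 2 and 4 (adjusted p = 0.0849). Macrophage markers, whose cells also make Cd36, Lpl and Fabp5, summed to 343 to 500.0 CPM in KO at 29 °C, 201 to 314 CPM in WT at 29 °C, 75.9 to 164 CPM in KO at room temperature and 86.6 to 116 CPM in WT at room temperature. None of these 10 markers was at 0 in any library, and their part in the levels of these genes was not tested.

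The transport proteins Slc27a1 (FATP1) and Slc27a2 (FATP2) couple entry of fatty acids to their activation with coenzyme A. Slc27a1 (chr8:71568882-71587302, plus strand, 14 exons) had 101, 107 and 109 CPM in KO and 83.6, 83.8, 96.1 and 88.1 CPM in WT at 29 °C, against 259.6, 213, 185 and 173 CPM in KO and 190.5, 225, 253 and 210.5 CPM in WT at room temperature. All 7 libraries at 29 °C lay below all 8 at room temperature. Housing at 29 °C lowered it 1.97-fold in KO (-0.98 ± 0.13, adjusted p = 2.4e-05) and 2.50-fold in WT (-1.32 ± 0.12, adjusted p = 7.4e-08). KO stood above WT at 29 °C without overlap, as in 43.1% of genes tested, and was not called (0.26 ± 0.13, adjusted p = 0.102). Without KO at room temperature replicate 1 its interaction was called (0.47, adjusted p = 0.0267), and with all libraries it was not (0.35 ± 0.17, adjusted p = 0.147).

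Slc27a2 (chr2:126552407-126588243, plus strand, 10 exons) had 121, 149.7 and 138 CPM in KO and 56.4, 60.7, 88.0 and 115 CPM in WT at 29 °C. At room temperature it had 201, 80.1, 187 and 74.9 CPM in KO and 205, 239, 255 and 218 CPM in WT. KO at room temperature split, with replicates 1 and 3 just below the WT range and replicates 2 and 4 at the level of WT at 29 °C. The housing difference was 0.01 ± 0.34, adjusted p = 0.989 in KO, and without replicates 2 and 4 it was -0.51 (adjusted p = 0.110). In WT it fell 2.86-fold at 29 °C (-1.52 ± 0.32, adjusted p = 9.7e-04). The interaction was called (1.52 ± 0.46, adjusted p = 0.0264) and was lost without KO at 29 °C replicate 2 (adjusted p = 0.0632), without a filter on low counts (adjusted p = 0.0692) and without the libraries with muscle transcripts (adjusted p = 0.234). KO lay above WT at 29 °C without overlap and was not called (0.77 ± 0.34, adjusted p = 0.0820). It was called without KO at room temperature replicate 4 (adjusted p = 0.0489), without WT at 29 °C replicate 4 (adjusted p = 0.0370), without KO at room temperature replicates 2 and 4 (adjusted p = 0.00706), by limma-voom (adjusted p = 0.0429) and in a fit of these 2 groups alone (adjusted p = 0.0375). At room temperature KO lay below WT and was not called (-0.76 ± 0.32, adjusted p = 0.406), and without KO replicates 2 and 4 the value was -0.24. The lincRNA gene Gm26697 overlaps Slc27a2 on the opposite strand, and the sources do not state whether reads were counted by strand, so reads of this pair cannot be told apart here.

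Vldlr encodes the receptor that takes up triglyceride-rich particles and binds apolipoprotein E (chr19:27216484-27254231, plus strand, 19 exons). It had 133, 158 and 114 CPM in KO and 69.0, 72.0, 49.6 and 67.0 CPM in WT at 29 °C, against 206, 169, 144 and 134 CPM in KO and 189.9, 215, 214 and 188 CPM in WT at room temperature. Its order of groups was that of Lpl, with WT at 29 °C below every other library. KO was 2.09-fold higher than WT at 29 °C (1.07 ± 0.15, adjusted p = 4.8e-05). The housing difference was not called in KO (-0.27 ± 0.15, adjusted p = 0.156), and in WT it fell 3.13-fold at 29 °C (-1.65 ± 0.15, adjusted p = 6.6e-08). The interaction was 1.37 ± 0.21, adjusted p = 2.4e-04.

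Mfsd2a encodes a membrane transporter of lysophosphatidylcholine, best known at the blood-brain barrier and induced in brown fat by cold in mice (chr4:122946850-122961188, minus strand, 14 exons). It was the lowest of the 10 per kilobase and had the largest errors, with 1.55, 1.62 and 11.3 CPM in KO and 0.173, 0.399, 0.726 and 1.37 CPM in WT at 29 °C. At room temperature it had 5.82, 0.759, 0.725 and 0.122 CPM in KO and 5.21, 36.0, 5.50 and 10.4 CPM in WT. Its estimated counts were as low as 3 in KO at room temperature replicate 4 and 5 in WT at 29 °C replicate 1. KO at both temperatures overlapped (1.38 ± 1.13, adjusted p = 0.342). WT at 29 °C lay below WT at room temperature without overlap, 21.8-fold lower (-4.44 ± 1.198, adjusted p = 0.00581). KO at 29 °C lay above WT at 29 °C without overlap and was not called (2.87 ± 1.23, adjusted p = 0.0778), while it was called by DESeq2 (adjusted p = 0.0319) and without KO at room temperature replicate 1 (adjusted p = 0.0415). KO and WT at room temperature differed by -2.95 ± 1.08, adjusted p = 0.343. The interaction (5.82 ± 1.63, adjusted p = 0.0200) was lost without KO at 29 °C replicate 3 (4.22, adjusted p = 0.0668), which was the highest of its group at 11.3 CPM. It was also lost without the libraries with muscle transcripts (3.95, adjusted p = 0.203) and without KO at room temperature replicates 2 and 4 (5.01, adjusted p = 0.0725).

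**Figure D4:**
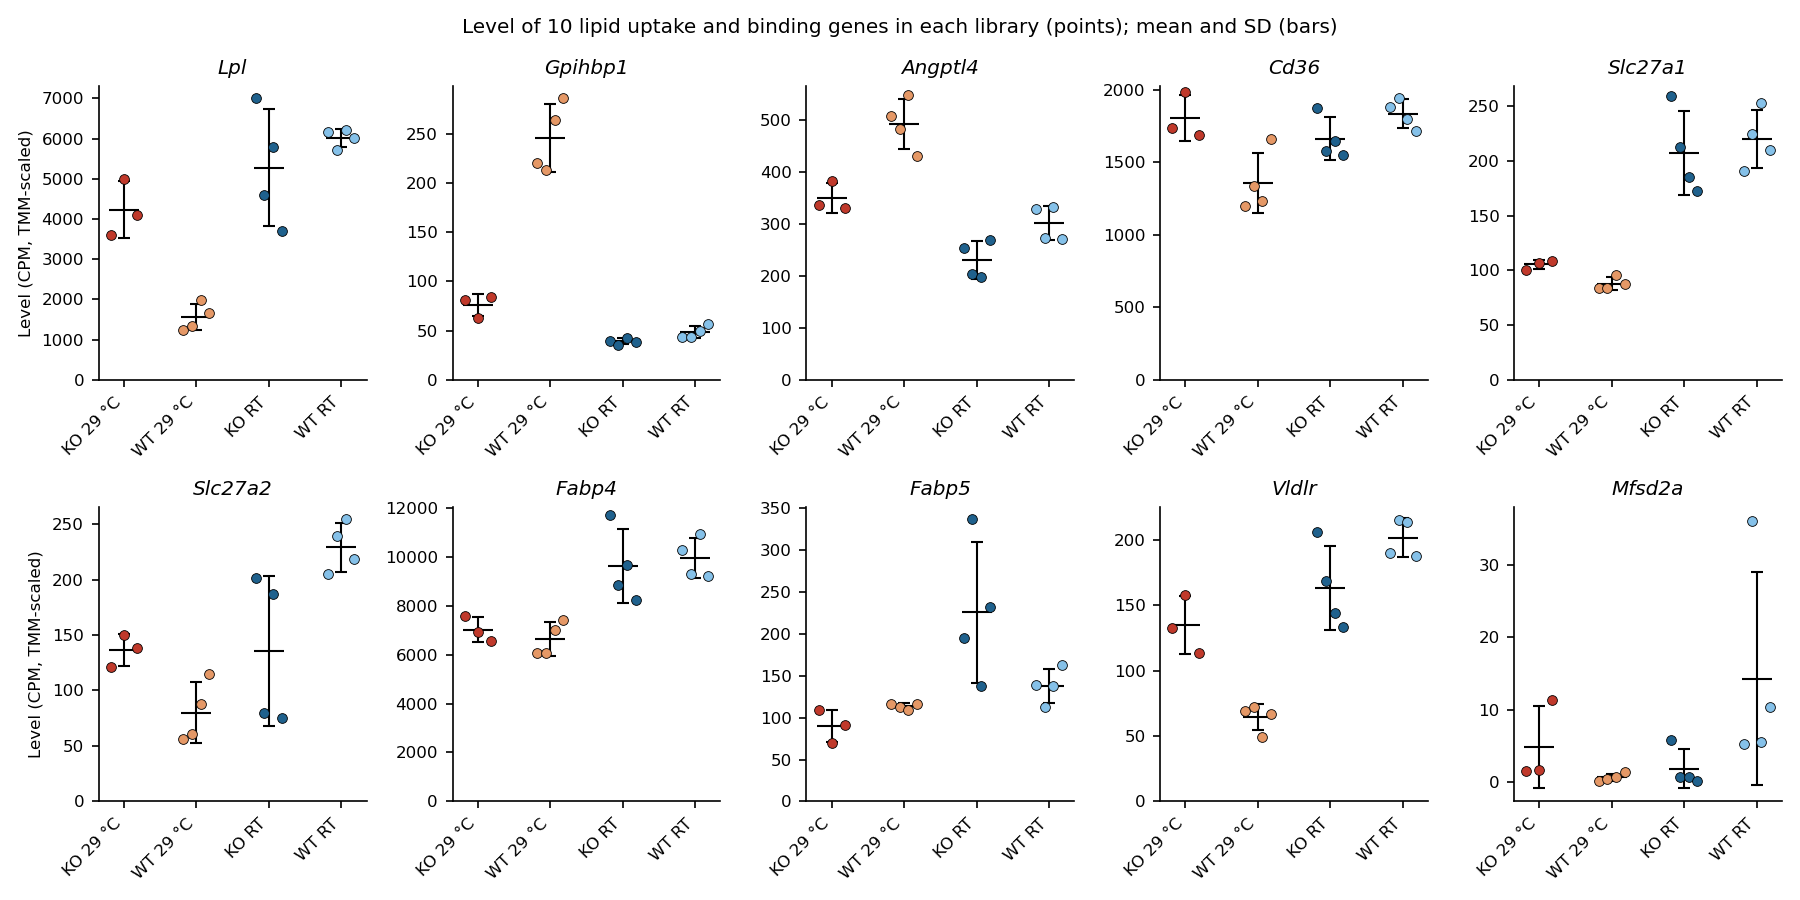
Level of each of the 10 genes in CPM (vertical axes) in every library, as points, with the group mean and SD as bars. By mean, WT at 29 °C is lowest for Lpl, Cd36, Slc27a1, Slc27a2, Fabp4, Vldlr and Mfsd2a, and highest for Gpihbp1 and Angptl4, with 213 to 286 CPM of Gpihbp1.

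Cd36, Vldlr and Mfsd2a were higher in KO than WT at 29 °C by mean and lower at 29 °C in WT, and the 250 bases upstream of a RefSeq start of each (GRCm38.p6) are printed so that their letters can be compared. The windows are chr5:17835897-17836146 (minus strand), chr19:27216234-27216483 (plus strand) and chr4:122961189-122961438 (minus strand). Capitals mark the nuclear receptor core AGGTCA, read on either strand (TGACCT on the other).
Cd36: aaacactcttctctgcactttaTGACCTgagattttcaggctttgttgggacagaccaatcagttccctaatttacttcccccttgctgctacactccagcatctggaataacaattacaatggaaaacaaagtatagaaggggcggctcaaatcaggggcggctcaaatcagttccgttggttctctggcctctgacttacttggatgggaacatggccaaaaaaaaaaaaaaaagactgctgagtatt
Vldlr: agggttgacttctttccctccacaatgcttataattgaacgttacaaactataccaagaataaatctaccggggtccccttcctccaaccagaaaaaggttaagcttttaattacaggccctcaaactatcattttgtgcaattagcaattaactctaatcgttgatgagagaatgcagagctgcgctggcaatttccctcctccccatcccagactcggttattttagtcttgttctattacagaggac
Mfsd2a: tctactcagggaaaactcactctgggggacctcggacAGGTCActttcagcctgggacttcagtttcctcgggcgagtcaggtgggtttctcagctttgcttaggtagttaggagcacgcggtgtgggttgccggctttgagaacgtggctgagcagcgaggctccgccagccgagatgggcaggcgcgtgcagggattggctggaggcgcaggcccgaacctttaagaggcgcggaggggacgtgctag
The Cd36 window lies in an intron of longer annotated forms of the gene, and the Vldlr window holds no AGGTCA. Slc27a1 and Slc27a2 were also higher in KO than WT at 29 °C by mean and lower at 29 °C in WT. Their windows are not printed, and no Slc27a1 window held AGGTCA. Of the 10 genes 5 had RefSeq promoter windows, 8 windows in all, and the core was in 3 of them (Cd36, Mfsd2a and Slc27a2), against 14.02% of the 32851 windows of the same length in the RefSeq table. No window of these genes held the PPAR element, searched as AGGTCA repeated after any 1 base (0.0335% of all windows), the estrogen-related receptor element TCAAGGTCA (0.387%) or the cyclic AMP response element TGACGTCA (1.55%). The core is part of the PPAR and the estrogen-related receptor elements. These matches describe letters in a window and say nothing of binding.

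Fabp4 and Fabp5 encode the adipocyte and the epidermal fatty acid binding protein, which carry fatty acids through the cytosol and lie close together on chromosome 3 (chr3:10204088-10208576, minus strand, and chr3:10012548-10016607, plus strand, 4 exons each). Fabp4 had 7566, 6938 and 6558 CPM in KO and 6071, 6056, 7028 and 7401 CPM in WT at 29 °C, against 11733, 8843, 9687 and 8254 CPM in KO and 10280.1, 9304, 10954 and 9238 CPM in WT at room temperature. All libraries at 29 °C lay below all at room temperature. It fell 1.37-fold at 29 °C in KO (-0.46 ± 0.13, adjusted p = 0.00999) and 1.50-fold in WT (-0.58 ± 0.12, adjusted p = 4.6e-04). With library totals unscaled neither call was made, at -0.15 in KO (adjusted p = 0.344) and -0.24 in WT (adjusted p = 0.0740). The call in KO was also lost without the libraries with muscle transcripts (adjusted p = 0.130). KO and WT differed little, by 0.08 ± 0.13 at 29 °C and -0.05 ± 0.12 at room temperature, with adjusted p of 0.643 and 0.929.

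Fabp5 had 109, 69.7 and 91.5 CPM in KO and 117, 113, 109 and 117 CPM in WT at 29 °C. At room temperature it had 195, 338, 138 and 232 CPM in KO and 139, 113, 137 and 163 CPM in WT. The highest were KO at room temperature replicates 2 and 4, the libraries in which Slc27a2 and Lpl were lowest in that group. Fabp5 was lower at 29 °C than at room temperature in KO, 2.51-fold (-1.33 ± 0.24, adjusted p = 4.5e-04), with no overlap, and the value without KO at room temperature replicates 2 and 4 was -0.89 (adjusted p = 0.00192). In WT the difference was not called (-0.28 ± 0.21, adjusted p = 0.252), though it was in a fit of these 2 groups alone (adjusted p = 0.0362). The interaction (-1.05 ± 0.31, adjusted p = 0.0225) was lost without KO at 29 °C replicate 2 (adjusted p = 0.0670), without the libraries with muscle transcripts (adjusted p = 0.196) and without KO at room temperature replicates 2 and 4 (-0.61, adjusted p = 0.0782). KO over WT was 0.71 ± 0.21, adjusted p = 0.223 at room temperature and -0.34 ± 0.23, adjusted p = 0.252 at 29 °C. The first was called by DESeq2 (adjusted p = 0.0492) and without KO at room temperature replicate 3 (adjusted p = 0.0421). Without KO at room temperature replicates 2 and 4 it was 0.27 and was not called. Of the stretches of 50 bases in the Fabp5 transcript, 21.1% also occur in transcripts of other genes, Gm6166 and Fabp5l2 among them, so its counts are uncertain; for Lpl and Slc27a1 the share was 1.69% and 1.75%, and for the other 7 it was 0.

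The log2 ratio of Fabp5 to Fabp4 was -6.12, -6.64 and -6.16 in KO and -5.70, -5.74, -6.01 and -5.99 in WT at 29 °C. At room temperature it was -5.91, -4.71, -6.14 and -5.15 in KO and -6.20, -6.36, -6.32 and -5.83 in WT. At 29 °C KO lay below WT without overlap, with a difference of -0.45 (two-sided exact permutation p = 0.0286). At room temperature the genotypes overlapped, with KO higher by 0.70 on average (exact p = 0.114), and by 0.16 without KO replicates 2 and 4.

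**Figure D5:**
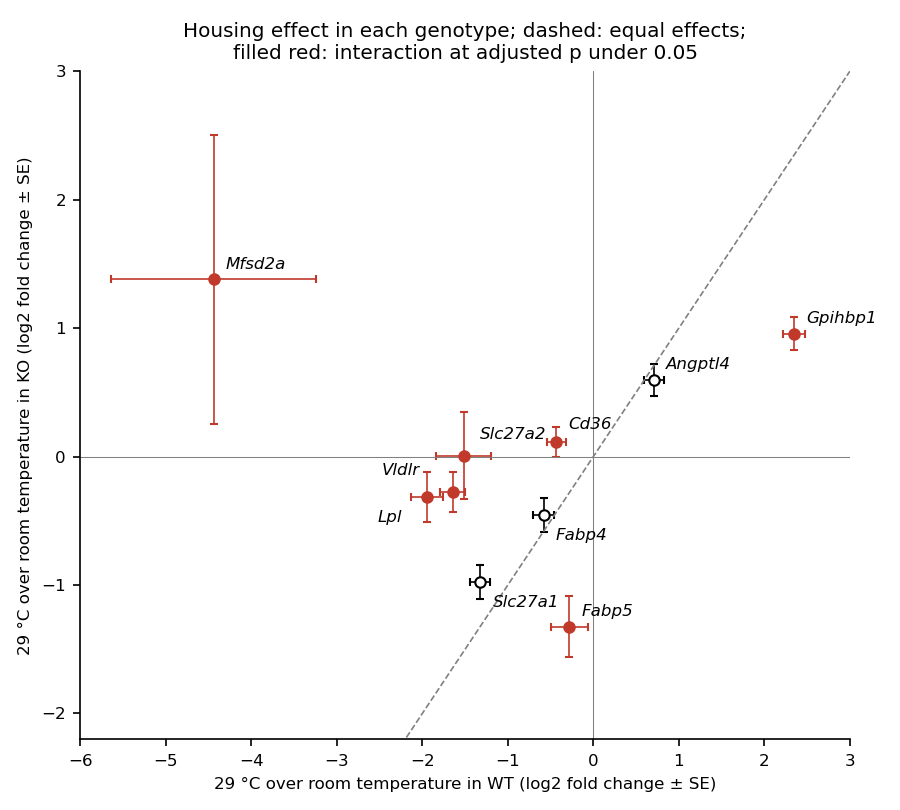
Log2 fold change ± SE of 29 °C over room temperature in KO (vertical axis) and WT (horizontal axis) for the 10 genes, filled where the interaction was called. Lpl (-0.32 in KO, -1.94 in WT) and Vldlr (-0.27 in KO, -1.65 in WT) lie above the dashed line of equal effects, Gpihbp1 (0.96 in KO, 2.35 in WT) below it, and Angptl4 close to it.

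Other genes of the pathway were counted in 5 lists, for which the shares and medians of all genes given above are the background. Of 15 partners of the lipase 13 were tested. In KO against WT at 29 °C 4 were higher and 3 lower (median 0.12), and at 29 °C against room temperature 1 was higher and 7 lower in KO (median -0.60) and 3 higher and 9 lower in WT (median -1.005). The endothelial lipase gene Lipg averaged 3.49 ± 0.921 CPM in KO and 13.97 ± 9.44 CPM in WT at 29 °C (-1.998 ± 0.41, adjusted p = 0.00159). Among the proprotein convertases, which cleave the lipase and ANGPTL proteins, Pcsk5 was higher in KO at 29 °C (1.14), with an interaction of 1.98. Furin (-1.19) and the apolipoprotein gene Apoc1 (-0.72) fell at 29 °C in KO, and Pcsk6 (-1.65) and Furin (-1.62) in WT. Adjusted p of the calls in these sentences ran from 3.1e-09 to 0.0373.

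Of 12 receptors and apolipoproteins of particle uptake 10 were tested, with 1 higher and 2 lower in KO against WT at 29 °C (median -0.09), 3 higher and 2 lower at 29 °C in KO (median 0.18), and 4 higher and 1 lower in WT (median 0.28). Sorl1, an intracellular sorting receptor, averaged 11.4 ± 1.74 CPM in KO and 5.39 ± 2.002 CPM in WT at 29 °C, against 116 ± 42.7 CPM in KO and 81.7 ± 13.4 CPM in WT at room temperature. It had the largest housing difference of the list, lower at 29 °C in KO (-3.35 ± 0.33, adjusted p = 6.3e-06) and WT (-3.91 ± 0.31, adjusted p = 1.1e-07) alike. The endocytic receptor Lrp1 had an interaction of 1.10 ± 0.28, adjusted p = 0.0101, and Apoe, the apolipoprotein ligand of these receptors, rose at 29 °C by 0.72 in WT (adjusted p = 2.2e-04).

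Of 15 genes of fatty acid transport and activation 12 were tested, with 3 higher and 3 lower in KO against WT at 29 °C (median 0.09). At 29 °C 2 were higher and 7 lower in KO (median -0.48), and 3 higher and 6 lower in WT (median -0.28). Acsl1, the main acyl-CoA synthetase of adipocytes, was higher in KO at 29 °C (1.05 ± 0.18, adjusted p = 2.6e-04), fell at 29 °C in WT (-1.65) and had an interaction of 1.27. Acsl5, another synthetase, averaged 102 ± 9.08 CPM in KO and 61.4 ± 15.3 CPM in WT at 29 °C, against 1063 ± 308 CPM in KO and 701 ± 92.2 CPM in WT at room temperature. It fell in both genotypes (-3.38 in KO and -3.51 in WT), and Acsl3 fell in KO (-1.29). Got2, a mitochondrial aminotransferase also described as a fatty acid binding protein of the plasma membrane, had an interaction of -0.71 ± 0.16, adjusted p = 0.00368.

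Of 14 other lipid-binding proteins 11 were in the table and 8 tested, with 2 higher and 1 lower in KO against WT at 29 °C and 1 higher and 4 lower at 29 °C in each genotype. The peroxisomal acyl-CoA binding protein gene Acbd5 (0.60) and the sterol carrier Scp2 (0.51) were higher in KO at 29 °C, with adjusted p of 0.00201 and 0.00513. They fell at 29 °C in WT by 1.19 and 1.28 on the log2 scale, with interactions of 0.64 and 0.57 (adjusted p = 0.0170 and 0.0262). Acbd4 fell in KO (-0.75). Fabp3, the heart and muscle fatty acid binding protein, averaged 538 ± 60.3 CPM in KO at 29 °C and 250.2 ± 97.1 CPM in KO at room temperature (1.10 ± 0.22, adjusted p = 9.3e-04). Its highest library, at 605 CPM, was KO at 29 °C replicate 1, in which muscle markers summed to 12.03 CPM. The part of muscle in its level was not tested. In WT it averaged 493 ± 26.2 CPM at 29 °C and 370 ± 51.1 CPM at room temperature.

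Of 11 nuclear receptors and cofactors that act on this pathway, all tested, 7 were higher and 1 lower in KO against WT at 29 °C (median 0.33). At 29 °C 1 was higher and 2 lower in KO (median -0.14), and 10 were lower in WT (median -0.71). The coactivator gene Ppargc1a was higher in KO at 29 °C (1.95 ± 0.43, adjusted p = 0.00277) with an interaction of 2.61, and Pparg, the receptor that drives adipocyte lipid genes, was higher by 0.92 (adjusted p = 9.0e-04). In WT Ppargc1a (-2.66) and Ppargc1b (-1.42) fell at 29 °C. Ppara, the receptor of fatty acid oxidation genes, rose at 29 °C in KO (0.86 ± 0.26, adjusted p = 0.0145) and had an interaction of 1.59 (adjusted p = 0.00480), while Rxra, the partner of these receptors, fell in KO (-0.66). In KO against WT at room temperature edgeR called 0 genes of the 5 lists, with 11 at an unadjusted p under 0.05, 3 called by DESeq2, among them Got2 0.48, adjusted p = 0.00641 and Ppara -0.89, adjusted p = 0.0149, and 0 by limma-voom.

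For each of the 10 genes the 2 genes with the most similar log2 CPM over the 15 libraries were found among 9530 others with a mean of at least 5 CPM. Pearson's r is given as a description, and since the 4 groups differ widely it mostly follows the group means. For Lpl they were Adtrp (0.98) and Ctsz (0.98), for Gpihbp1 Dock9 (0.995) and Esam (0.99) and for Angptl4 Nrbp2 (0.95) and Cfd (0.95). Esam is 1 of the 14 endothelial markers and Cfd, which encodes adipsin, 1 of the 8 adipocyte markers. Most of those 8 moved the other way from Angptl4 in 2 comparisons. At 29 °C 1 was higher and 6 lower in WT, against 35.9% and 32.8% of all genes tested. In KO against WT at 29 °C 6 were higher and 1 lower, against 24.7% and 20.0%. For the housing effect in KO, where Angptl4 rose, 2 were higher and 1 lower (median -0.05), against 24.3% and 21.7%. The sum of the 8 was 4651 to 6226 CPM in KO and 2859 to 3855 CPM in WT at 29 °C. At room temperature it was 4279 to 5414 CPM in KO and 4919 to 5680 CPM in WT. For Cd36 they were Reep3 (0.96) and Fzd4 (0.95), for Slc27a1 Pigq (0.98) and Oplah (0.98) and for Slc27a2 Pfkfb3 (0.95) and Tbc1d20 (0.95). For Fabp4 they were Mycbp (0.97) and Thoc6 (0.95) and for Fabp5 Cyb5r3 (0.97) and Sqle (0.95), the second of which encodes squalene epoxidase of cholesterol synthesis. For Vldlr they were Erlec1 (0.98) and Pofut2 (0.98). Among those of Mfsd2a was Osbpl11 (0.88).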

How the data were processed

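The deposited table holds RSEM expected counts per gene symbol and library, made by the authors with STAR 2.7.10a on mm10 and RSEM 1.2.28, and tested by them with DESeq2 (given as 1.3.40), per the series' design text and the submitters' processing notes. Of its entries 7.26% have decimals, and counts were rounded. All 15 columns matched a sample by name. Genes passing edgeR's filterByExpr (minimum count 10) were scaled by TMM and fitted in edgeR 4.0.16 (R 4.3.3, limma 3.58.1) with a robust quasi-likelihood model of 4 groups and 11 residual degrees of freedom. P-values were adjusted over the 15083 genes tested within each comparison (Benjamini-Hochberg). Log2 CPM used a prior count of 1. Ratios within libraries were compared by exact permutation. Other effects are log2 fold change ± SE. The fit was tested on simulated data.

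The 10 genes, the lists and the ratios were chosen with earlier results of these data known. Named from each list are the 2 called genes with the largest change and a mean of at least 5 CPM in each comparison, and for each of the 10 genes its 2 most similar genes (predicted genes left out). A few genes that this rule names are not reported here. Alternatives were RLE factors, no filter, a filter of 1 CPM in 4 libraries, a fit of the compared groups alone, an adjusted p under 0.01, limma-voom, DESeq2 1.42.0, a replicate block, a prior count of 0.25 and leaving out each library. Chosen after seeing the data were the removal of the 3 libraries with muscle transcripts, of KO at room temperature replicates 2 and 4 and of mitochondrially encoded genes, and unscaled library totals. Positions, exons and lengths come from GENCODE M21 (GRCm38), in which all 10 genes were found. Promoter letters are from RefSeq (GRCm38.p6). Counting error is small at these depths except for Mfsd2a, and the number of libraries limits precision.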

Additional observations from a re-analysis of the deposited data

Results flagged for a closer look

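The housing effect differed between KO and WT, by the interaction term of the edgeR fit, in 7 of the 10 genes, against 28.3% of all genes tested. The log2 interaction was 1.63 for Lpl, -1.39 for Gpihbp1, 0.55 for Cd36, 1.52 for Slc27a2, -1.05 for Fabp5, 1.37 for Vldlr and 5.82 for Mfsd2a, with adjusted p from 7.1e-05 to 0.0264. Those of Lpl, Gpihbp1 and Vldlr were also called at an adjusted p under 0.01.

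On the CPM scale Mfsd2a had a library far from its group in both genotypes at room temperature. KO replicate 1 stood at 5.82 CPM, against 0.122 to 0.759 CPM in the other 3 KO libraries, and WT replicate 2 at 36.0 CPM, against 5.21 to 10.4 CPM in the other 3 WT libraries. In 30 groups of 4 libraries examined this way, chance alone marks about 1 in 20.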

How the results depend on the processing

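Of 640 values of the 10 genes under the alternatives, 593 kept their direction and their side of the threshold, 20 lost the call, 11 gained it and 16 changed sign, none of which was called under either setting. Of the fits with single libraries left out, only the lowest and highest log2 fold change per gene and comparison enter. Call changes in the other such fits are not in these counts. In KO against WT at room temperature the sign changed without KO replicates 2 and 4 for Lpl (0.0912), Slc27a1 (0.0166) and Fabp4 (0.11), and Fabp4 ranged from -0.16 to 0.0208 with single libraries left out. For the housing effect in KO, Slc27a2 was -0.00842 with RLE factors, -0.0553 with no filter, -0.00830 by DESeq2, -0.24 without the libraries with muscle transcripts, -0.51 without KO at room temperature replicates 2 and 4, and -0.19 to 0.26 with single libraries left out. Cd36 was -0.0183 and Mfsd2a -0.33 without the libraries with muscle transcripts, and Mfsd2a ranged from -0.22 to 3.16 with single libraries left out. Unscaled library totals shifted the median of all genes to 0.35 in KO and 0.41 in WT at 29 °C against room temperature, and gave 0.0372 for Vldlr in KO and 0.0687 for Fabp5 in WT. With unscaled totals the housing effect was called as higher for 3 of the 10 and lower for 2 in KO, against 2 and 3 in the main fit. In WT it was called as higher for 2 and lower for 5, against 2 and 7. The Fabp4 interaction was -0.0241 without KO at room temperature replicates 2 and 4. The log2 ratio of Gpihbp1 to endothelial markers in KO against WT at room temperature was 0.0549 without those 2 libraries, and -0.11 to 0.0270 with single libraries left out.

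Of the 10 genes DESeq2 called 1, against 0, in KO against WT at room temperature, and 3, against 5, were called for the housing effect in KO without the libraries with muscle transcripts. The interaction count was 7, and 3 without those libraries, 4 without KO at room temperature replicates 2 and 4 and 3 at an adjusted p under 0.01. Without KO at room temperature replicates 2 and 4 the housing effect in KO was called for 6 (2 higher and 4 lower), against 5 (2 higher and 3 lower) with all libraries. In that fit 34.9% of genes tested were called. With single libraries left out the counts were 4 to 6 for KO against WT at 29 °C, 0 to 1 at room temperature, 5 and 9 throughout for the housing effect in KO and WT, and 4 to 8 for the interaction. The cause of these changes was not tested, and fits with libraries left out differ in both the number and the identity of libraries. With the replicate block, counts were 5, 0, 5, 9 and 5 in the same order, and the interaction calls of Fabp5 (adjusted p = 0.0540) and Mfsd2a (adjusted p = 0.0750) were lost. Same-numbered libraries did not deviate together (correlations -0.28 to 0.33), so the numbers are not taken as pairs. Over all genes, KO against WT at room temperature called 36, against 237 by DESeq2, 20 with unscaled totals, 13 without the libraries with muscle transcripts, 5 without KO replicates 2 and 4 and 5 to 60 without single libraries. Without the libraries with muscle transcripts 4229 genes, against 6747, were called in KO against WT at 29 °C and 4129, against 6940, for the housing effect in KO.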

Other observations

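Together the 10 genes took 1.50% to 1.64% of all counts in KO at 29 °C, 1.09% to 1.38% in WT at 29 °C, 1.33% to 1.89% in KO at room temperature and 1.59% to 1.81% in WT at room temperature. Fabp4 alone took up to 0.820%, 0.848%, 1.02% and 0.983% in the same order. The 13 mitochondrially encoded genes took 25.8% to 26.9%, 30.2% to 41.6%, 22.7% to 25.2% and 25.2% to 27.4%, and leaving them out of the table changed no count of the 10 genes called.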
